A study of Rattus norvegicus with 5 samples.

Results

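The comparison described here sets the ovary of 1 rat given cisplatin 3 times, the milder model of premature ovarian insufficiency in the study, against the ovary of 1 saline control rat. These are 2 of the 5 libraries of the series, chosen by their treatment labels. All rats were female Sprague Dawley animals aged 10 to 12 weeks, in groups of 6, and 1 ovary was drawn at random from each group for sequencing. The cisplatin rat received 3 weekly intraperitoneal injections of 3 mg/kg, without platelet-rich plasma (PRP). The control rat received 5 injections of saline, so both the agent and the number of injections differed between the animals. Its ovary was taken 2 weeks after the last of them. For cisplatin without PRP the labels state no day of collection. The other groups, used below only for levels side by side, received the same cisplatin dose 5 times, or either schedule followed by PRP injected into the ovary. PRP was given 1 week after the last cisplatin injection, and the PRP groups also received an antibiotic for 3 days. Their ovaries were taken 2 weeks after PRP.

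Cisplatin binds DNA and forms links within it, which block replication and transcription and can trigger cell death. In the ovary it is known for the loss of growing and resting follicles, the units made of an oocyte and the granulosa cells that feed it. Premature ovarian insufficiency is the early end of ovarian function that follows such a loss. RNA from a whole ovary mixes oocytes, granulosa and theca cells, corpora lutea, stroma, vessels and blood. Fewer cells of a type and less RNA per cell cannot be told apart in it.

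The unit described here is the transcript, known by its length and a running number. Of 299341 transcripts listed in any of the 5 libraries, 0 had an identifier found in the reference gene table, so no transcript is named by gene. For the same reason the label ovary could not be checked against the 9 marker lists, which name genes of oocytes, granulosa, theca, luteal, stromal, vascular, immune and blood cells and of the response to DNA damage. The control library held 27088350 estimated counts and the cisplatin library 30742959. Fragments were longer in control, at 229.93 bases, than in the cisplatin library, at 186, as read from the gap between length and effective length. With 1 library per group no difference was tested. Each value below compares 2 single ovaries, and each interval covers counting error only.

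Levels are in TPM, a count divided by the effective length and scaled to a total of 1000000 per library. A difference is that of log2(TPM + 1), cisplatin minus control, and a transcript was compared where it reached 5 TPM in either library. Of 19870 such transcripts, 15122 lay within 2-fold, 2218 were higher after cisplatin by 2-fold or more and 2530 were lower by as much. These counts are the background for the groups below unless another base is named, 11.2% higher and 12.7% lower, or 23.9% in either direction. The median difference was 0.21, and the lower and upper quartiles were -0.35 and 0.56. The balance of directions followed the scaling. Higher transcripts were 46.7% of those at least 2-fold apart in TPM. They were 59.9% with median-of-ratios scaling over all transcripts above 0 in both libraries (3044 higher, 2034 lower). They were 34.0% when the same scaling used compared transcripts alone (1703 higher, 3300 lower), and 37.3% with CPM, a count scaled by the library total alone (1448 and 2439). Statements on direction below hold for TPM, unless another scaling is named.

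**Figure D1:**
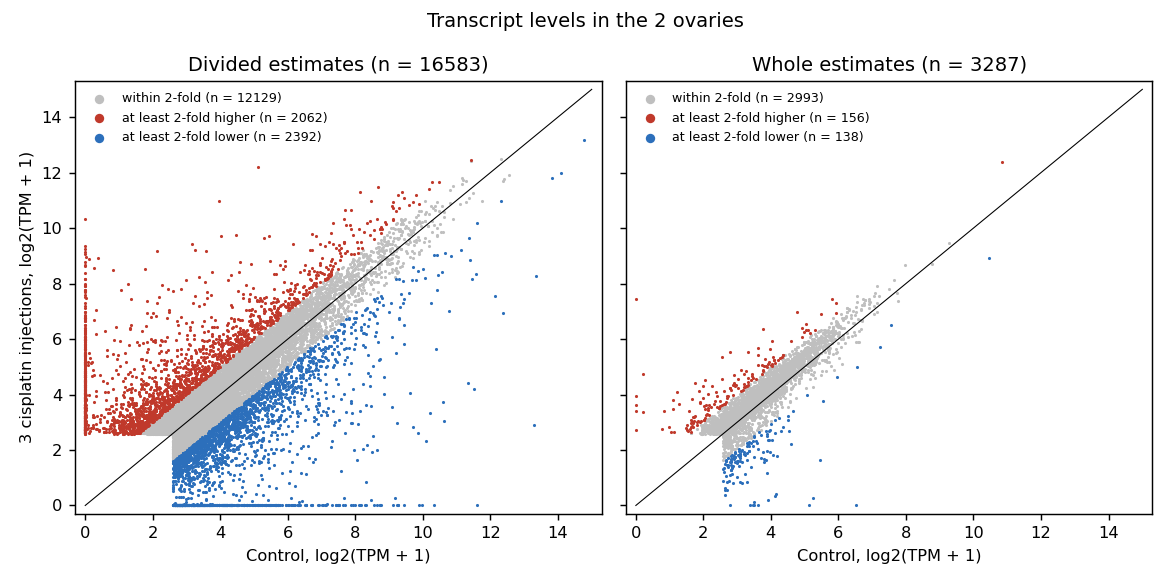
Level of each compared transcript in the control ovary (horizontal axis) and the ovary after 3 cisplatin injections (vertical axis), both as log2(TPM + 1), with divided estimates on the left and whole estimates on the right. Points along the axes are transcripts at or near 0 in 1 library; whole estimates lie closer to the line of equal level, with 156 at least 2-fold higher and 138 lower of 3287.

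Most differences were moderate. From 2-fold to below 4-fold lay 1320 of the higher and 1491 of the lower transcripts. At 4-fold or more there were 898 higher transcripts, 4.52% of those compared, and 1039 lower ones, 5.23%. At 16-fold or more there were 275 higher transcripts, 1.38% of those compared, and 279 lower ones, 1.40%. Transcripts under 500 bases made up 36.5% of those 2-fold to 4-fold higher, 58.9% of those 4-fold to 16-fold higher and 70.9% of those higher by more. On the lower side these shares were 53.4%, 54.7% and 61.3%. Among all 19870 compared transcripts, 5115 were under 500 bases. The counting intervals of the 2 libraries lay apart for 98.6% of the higher and 98.1% of the lower transcripts. The same share over all compared transcripts is not given here, so these figures have no base to be read against. The higher and lower transcripts were chosen for their difference in the same values, and the intervals leave out any division of reads among transcripts.

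The amount of RNA in the differing transcripts was large. The lower transcripts held 26.9% of the control library's TPM and 5.37% of the cisplatin library's. The higher ones held 5.77% and 21.8%. In counts, which give long transcripts more weight, the lower set went from 10.2% to 2.05% and the higher set from 5.06% to 14.1%. These sets were chosen by the same values, so their shares describe the size of the difference and add no support to it. The median level in the lower set was 16.6 TPM in control and 3.39 TPM after cisplatin. In the higher set it was 3.66 TPM and 19.8 TPM. Transcripts within 2-fold had a median length of 1872 bases, against 546.5 in the higher set and 466 in the lower set.

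The 5 highest transcripts of the control ovary were at lower levels in the cisplatin ovary, a direction that ranking by control favours by itself. They held 7.99% of control TPM and 1.72% after cisplatin. First among them was transcript_130766, of 330 bases, at 27751 TPM in control and 9244 TPM after cisplatin, 3.00-fold lower (counting interval 2.97 to 3.04). Transcript_45099, of 703 bases, went from 17382 to 4100 TPM, 4.24-fold lower. Transcript_110652, of 415 bases, went from 14442 to 3565 TPM, 4.05-fold lower. Both stayed high in the 5-injection ovary, at 6772 and 2144 TPM, and both were at 0 TPM in the 5-injection ovary with PRP.

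The rest of these 5 showed wider gaps. Transcript_8999, of 370 bases, was at 10345 TPM in control and 309.98 TPM after cisplatin, 33.4-fold lower. It was at 1671 TPM after 5 injections. Transcript_34099, of 312 bases, was at 10015 TPM in control and between 0 and 6.48 TPM in each of the other 4 libraries. None of the 5 had whole estimates, the term used here for estimated counts that are whole numbers in both libraries. The others are called divided here, since an estimate that is not whole can hold reads shared out among similar transcripts, which would make the level of any 1 of them uncertain. How the estimates were made is not stated in the labels or headers. Under quantile normalization transcript_130766 had a difference of 0.00, since it ranked first in both libraries.

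The highest transcripts of the cisplatin ovary were less extreme. Its 5 highest held 3.14% of TPM, and the same transcripts held 4.02% in control. After transcript_130766 came transcript_136669, of 703 bases, at 5097 TPM in control and 5808 TPM after cisplatin, a ratio of 1.14. Transcript_349588, of 995 bases, went from 2756 to 5639 TPM, 2.05-fold higher (2.03 to 2.07). Transcript_346240, of 817 bases, went from 2750 to 5413 TPM, 1.97-fold higher and just short of the 2-fold mark. With median-of-ratios scaling over compared transcripts, transcript_349588 also fell short, at 0.80 on the log2 scale. With that scaling over all transcripts above 0 in both libraries, both passed the mark, transcript_349588 at 1.232 and transcript_346240 at 1.175. Quantile normalization gave 1.879 and 1.541. The only one of the 5 with whole estimates was transcript_346353, of 1187 bases. It went from 1840 TPM (1823 to 1856) to 5323 TPM (5295 to 5352), 2.89-fold higher. The 5-injection ovary had 4111 TPM and the one with PRP added 2370 TPM, but the 3-injection ovary with PRP had 1.39 TPM.

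**Figure D2:**
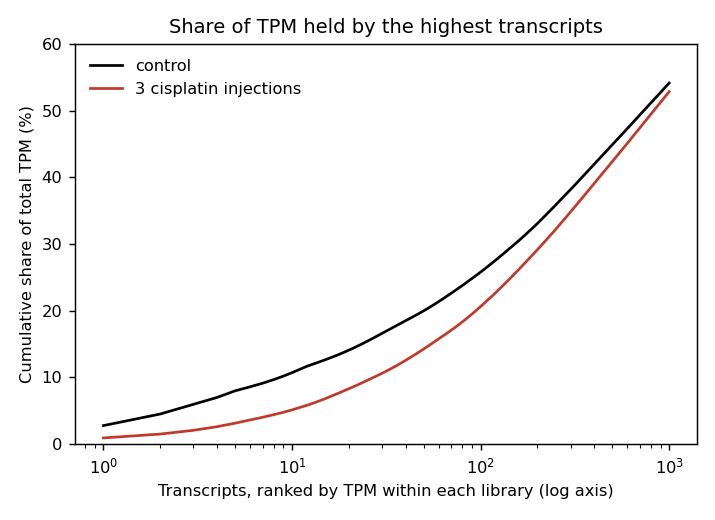
Cumulative share of total TPM (vertical axis, percent) held by transcripts ranked by TPM within each library (horizontal axis, log scale), for the control and the 3-injection cisplatin library. The 10 highest held 10.7% in control and 5.13% after cisplatin, and the curves draw together by 1000 transcripts, at 54.1% and 52.8%.

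The shares of the 2 libraries drew together down the ranking. The 100 highest transcripts held 25.8% of TPM in control and 20.6% after cisplatin. It took 735 transcripts to reach 50% of control TPM and 829 to reach 50% in the cisplatin library. The lists of 100 shared 52 transcripts, and the lists of 10 shared 4. Of the 100 highest in control, 37 were at least 2-fold lower after cisplatin and 6 higher. Of the 100 highest after cisplatin, 35 were higher than in control and 5 lower. A list ranked in 1 library leans toward transcripts high in it by the choice itself, and the 2 lists lean opposite ways. Ranked by the mean of both libraries, 97 transcripts reached 1000 TPM, with 22 higher and 19 lower.

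Differences varied with the mean level of both libraries. The 2186 transcripts with a mean below 5 TPM all passed the minimum in 1 library alone, which by itself selects for a difference, so their shares are not read. Of the 17684 others, 9.89% were higher and 11.1% lower, which is the base for the classes that follow. From 5 to 20 TPM the shares were 8.32% and 10.6% of 10984, below that base in both directions. They were 10.9% and 11.3% of 5244 from 20 to 100 TPM, slightly above it. From 100 to 1000 TPM they were 17.7% and 13.6% of 1359, above it by more.

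Transcripts with whole estimates gave a narrower comparison. Of 3287 compared transcripts with whole estimates, 4.75% were higher and 4.20% lower. Of the 16583 with divided estimates, 12.4% were higher and 14.4% lower. The gap held in each length class in both directions. At 4000 bases or more, 28 of 642 whole transcripts were higher and 4 lower, against 167 and 86 of 3149 divided ones. From 2000 to below 4000 bases, 47 of 1088 whole transcripts were higher and 8 lower. Under 500 bases the whole transcripts kept many lower members, 67 of 309 or 21.7%, beside 23 that were higher. The rank correlation of levels between the libraries was 0.858 across whole transcripts and 0.684 across all compared. Transcripts are not independent replicates, and whole estimates were fewer in the shortest class, 309 of 5115, than in the longest, 642 of 3791.

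**Figure D3:**
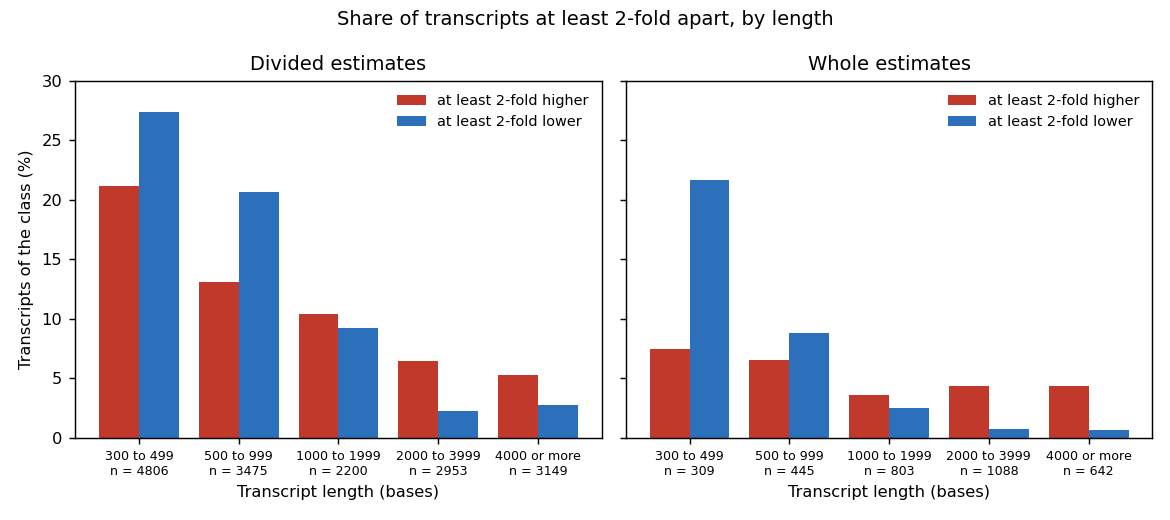
Share of compared transcripts (vertical axis, percent) at least 2-fold higher (red) or lower (blue) in the 3-injection cisplatin library, in 5 length classes (horizontal axis, bases), for divided (left) and whole (right) estimates. For divided estimates the higher share declines with length, from 21.2% under 500 bases to 5.30% at 4000 bases or more. The lower share goes from 27.4% under 500 bases to 2.24% from 2000 to below 4000 bases, and is 2.73% at 4000 bases or more.

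Short and long transcripts sat on opposite sides of 0 in TPM. The median difference was -0.24 below 500 bases and -0.07 from there to below 1000 bases. It was 0.28, 0.31 and 0.30 in the 3 classes above. The spread also narrowed with length. Quartiles of -1.06 and 0.74 in the shortest class compare with 0.09 and 0.51 in the longest. The minimum of 5 TPM stands for fewer counts in a short transcript than in a long one. In control the shortest class held 36.7% of TPM and 6.16% of counts, and the longest 6.11% and 36.2%. The part of counting error and of the minimum in the spread was not tested. The short class was split further. Below 350 bases, 23.7% of 1875 transcripts were higher and 30.1% lower. From 450 to below 500 bases the shares were 14.0% and 25.4% of 828.

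The 2 shorter classes lay below the 3 longer ones under each of the 4 other scalings run. Both forms of median-of-ratios scaling multiply the TPM of a library by a single factor. They shift all classes nearly alike and could hardly change this order. Quantile normalization also starts from TPM, and of the 4 only CPM leaves out the effective length. With CPM the same transcripts had medians of -0.16 and -0.19 in the 2 shorter classes, and 0.07, 0.08 and 0.06 in the longer ones. With median-of-ratios scaling over all transcripts above 0 in both libraries, the class under 500 bases had a median of -0.05 and the next one turned to 0.12. The longer classes then had medians of 0.47, 0.49 and 0.48. Over compared transcripts alone the 5 medians were -0.45, -0.28, 0.07, 0.10 and 0.09, and with quantile normalization -0.34, -0.16, 0.18, 0.22 and 0.22. Fragment length enters TPM through the effective length. A transcript of 300 bases had an effective length of 102.19 bases in control and 133.43 in the cisplatin library, a ratio of 1.31. At 4000 bases the ratio was 1.01. At equal CPM a short transcript therefore gets a lower TPM in the cisplatin library relative to a long one. The part of fragment length in the differences was not tested beyond the CPM values given here.

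The libraries differed as well in which transcripts were listed. Both listed 158301 transcripts, the control library alone listed 62206 and the cisplatin library alone 33383. Nearly all listed once were faint. Their median level was 0.24 TPM in the control library, a count of 1.60, and 0.20 TPM in the cisplatin library, a count of 1.00. Only 352 of those found in control alone reached 5 TPM, and 378 of those found after cisplatin alone. At 100 TPM or more there were 28 and 34. The class under 500 bases supplied 64.2% of the 352 and 76.7% of the 378, and 7 and 5 had whole estimates. For comparison, of all 19870 compared transcripts 5115 were under 500 bases and 3287 had whole estimates.

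The 4 widest upward differences of all compared transcripts, on the log2(TPM + 1) scale, were of this kind. Transcript_248181, of 654 bases, was not listed in control. It stood at 1297 TPM after 3 injections, at 754.1 TPM after 5, and at 39.1 and 1048 TPM in the 2 PRP ovaries, in the order of 3 and 5 injections. Transcript_73588, of 301 bases, was at 653 TPM against 0 in control, at least 610.1-fold higher than a floor of 3 counts. Transcript_335881, of 440 bases, was at 602 TPM against 0, at least 1185-fold higher. In the other 3 libraries it reached at most 16.01 TPM, after 5 injections with PRP. Transcript_381413, of 373 bases, was at 561 TPM against 0, at least 803.5-fold higher. None of these had whole estimates.

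Downward on the same scale, the first was transcript_334448, of 337 bases. It had 3117 TPM in control (3059 to 3177) and a count that rounded to 0 after cisplatin, at least 4354-fold lower. It was at 1155 TPM after 5 injections, a level between those of control and of 3 injections. From single ovaries no trend with the number of injections can be read. Transcript_275898, of 1158 bases, had the same order, with 1291 TPM in control, a rounded count of 0 after 3 injections and 731 TPM after 5. Its bound, at least 10638-fold lower, was above that of transcript_334448. Transcript_10090, of 608 bases, was at 1010 TPM in control and between 0 and 0.26 TPM in the other 4 libraries. Transcript_34099, described above, completes the first 4 on that scale. All 4 had divided estimates.

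Among whole estimates the widest differences, again on the log2(TPM + 1) scale, were 7.43 upward and -6.52 downward. Transcript_318062, of 850 bases, was at 171.9 TPM after cisplatin (165.7 to 178.3) and 0 in control, at least 969.4-fold higher. Transcript_355177, of 453 bases, had 177 counts, or 25.7 TPM, after cisplatin and 1 count in control, a ratio of 160.6 (28.4 to 6378). It was at 0.35 to 0.88 TPM in the other 3 libraries. Transcript_36893, of 612 bases, was at 14.3 TPM after cisplatin and 0 in control, and at 11.5 TPM after 5 injections. Last of the 4 was transcript_318356, of 6129 bases, at 11.4 TPM against 0.

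On the lower side, transcript_318061, of 838 bases, was at 90.9 TPM in control (86.4 to 95.6) and 0 after cisplatin, at least 502.4-fold lower. Transcript_495568, of 1585 bases, was at 34.0 TPM in control and 0 after cisplatin, at least 402.9-fold lower. Transcript_150445, of 568 bases, was at 37.1 TPM in control and had 2 counts after cisplatin, a ratio of 180 (49.5 to 1494). It was below 1 TPM in all 4 libraries other than control, with levels from 0.21 to 0.73. Transcript_334484, of 807 bases, went from 42.8 to 2.09 TPM, 20.5-fold lower (14.4 to 30.01). It was below control in the other libraries too, at 3.81 to 19.2 TPM.

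At low levels the added 1 TPM shrinks a log2 difference most, which bears on the long transcripts named next, all below 100 TPM in both libraries. Among those of 4000 bases or more, the first upward on that scale was transcript_247132, of 13702 bases. It had 71.1 counts, or 0.19 TPM, in control and 8698 counts, or 25.3 TPM, after cisplatin, 130.9-fold higher (103.7 to 167.9). The 5-injection ovary had a like level, 25.2 TPM, and the ovaries with PRP after 3 and 5 injections had 0.81 and 4.73 TPM. Transcript_297161, of 7617 bases, was at 0.003 TPM in control, a count that rounded to 1, and 13.7 TPM after cisplatin, a ratio of 5294 (494.9 to 109053). With a pseudocount of 0.1 TPM it came before transcript_247132, at 7.07 against 6.44. Transcript_323450, of 4627 bases, went from 5.77 to 90.8 TPM, 15.7-fold higher (14.6 to 17.0), the largest level reached by these 3. It lay between 13.5 and 20.5 TPM in the other 3 libraries.

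Downward in the same class, transcript_189960, of 8177 bases, went from 18.3 TPM to 0.008 TPM, 2351-fold lower (515.5 to 15392). It was at 44.2 TPM in the 3-injection ovary with PRP. Transcript_252601, of 4208 bases, went from 22.2 to 0.94 TPM, 23.7-fold lower (19.3 to 29.4). Transcript_387716, of 9342 bases, went from 10.1 TPM to 0, at least 781.3-fold lower. It was at 0 in 2 further libraries, after 5 injections and after 3 with PRP, and stood at 4.76 TPM after 5 with PRP.

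Several of these transcripts were next to each other in number. Transcript_318061 and transcript_318062, the first whole transcripts downward and upward, have consecutive numbers and lengths of 838 and 850 bases. So have transcript_318355 and transcript_318356, of 6115 and 6129 bases, and transcript_495568 and transcript_495569, of 1585 and 1570. This was noticed after the values were seen, and all consecutive pairs were then counted. The labels and file headers do not say what the order of the numbers stands for. There were 6017 pairs of compared transcripts with consecutive numbers, and in 123 of them, 2.04%, the members differed from control by at least 2-fold in opposite directions.

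Opposite pairs were more frequent where lengths were close. With lengths within 2% of each other, 28 of 448 pairs were opposite, 6.25%. With lengths further apart, 95 of 5569 were, 1.71%. Where both members had 1000 bases or more, the counts were 22 of 369, or 5.96%, within 2% and 13 of 3336, or 0.39%, beyond it. Members of the 22 and the 369 include transcripts that sit in 2 pairs, such as transcript_258157. Divided estimates were also more frequent in the close pairs of this length, 93.6% of members against 73.2%. Members of these close pairs lay nearer the 5 TPM minimum as well, with a median of the mean level of 10.4 TPM against 15.1 TPM. A member that reached the minimum in 1 library alone leans toward a difference by that choice. The part of divided estimates and of the minimum in the contrast was not tested. Pairs moving together showed a smaller contrast in these longer transcripts, at 2.44% within 2% and 1.47% beyond it. Changes in opposite directions offset each other in a sum. The summed level was within 2-fold of control in 24 of the 28 close opposite pairs and in 67 of the 95 others. Of all 448 close pairs, 10.0% were at least 2-fold apart in summed level, while 19.5% of their members were. Beyond 2% these shares were 10.9% and 15.7%.

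**Figure D4:**
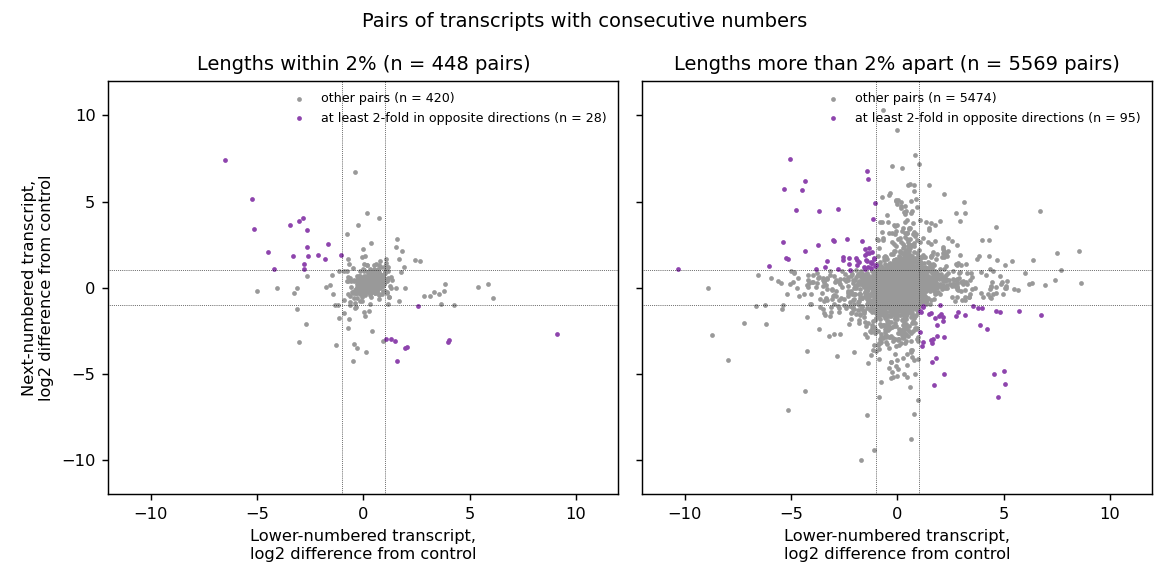
Log2 difference from control of a transcript (horizontal axis) and of the transcript with the next number (vertical axis), for pairs with lengths within 2% (left) and further apart (right); dotted lines mark 2-fold. Opposite pairs (purple) make up 28 of 448 on the left and 95 of 5569 on the right.

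Transcript_294857 and transcript_294858, of 1592 and 1604 bases, had nearly equal sums in the 2 ovaries. The former was at 37.0 TPM in control and 0 after cisplatin, at least 440.9-fold lower. The latter was at 0.11 and 39.0 TPM, 349.9-fold higher. Their summed level differed by 0.07 on the log2 scale. In the pair of transcript_318061 and transcript_318062 it differed by 0.91, from 90.9 to 171.9 TPM. For transcript_318355 and transcript_318356 it differed by 0.21, from 9.78 TPM in the former to 11.4 TPM in the latter. The sum for transcript_495568 and transcript_495569 was lower after cisplatin, by -1.71, from 34.0 TPM in the first to 9.72 TPM in the second.

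Other pairs had sums nearer to 2-fold or past it. Transcript_30228 and transcript_30229, both of 609 bases, were at 0 and 8.02 TPM in control and at 14.8 and 0 TPM after cisplatin. Their summed level differed by 0.81. Both had divided estimates. In the 5-injection ovary each was at 5.48 TPM, and in the 3-injection ovary with PRP each was at 4.004 TPM. In the 5-injection ovary with PRP they were at 4.399 and 0 TPM. Whether their opposite changes reflect reads shared out between them was not tested. Transcript_297160, of 7653 bases, went from 7.18 TPM to a rounded count of 0 beside the change of transcript_297161 given above, and the sum differed by 0.85. Transcript_258156, transcript_258157 and transcript_258158, of 3947, 3958 and 3956 bases, formed a run of 3. The outer members were at 6.16 and 7.29 TPM in control and 0 after cisplatin, and the middle one went from 0 to 15.4 TPM. Its sum with the lower-numbered neighbour differed by 1.19 and with the higher-numbered one by 0.98.

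The other ovaries held these pairs in other combinations. Transcript_318061 was at 177.9 TPM after 5 injections, 86.8 TPM after 3 with PRP and 81.5 TPM after 5 with PRP. Its neighbour transcript_318062 was at 0, 2.12 and 0 TPM in the same ovaries. The 3-injection ovary was thus the only one of the 5 with the longer member in place of the shorter. Transcript_294857 was at 44.3, 24.7 and 31.1 TPM in these ovaries, and transcript_294858 at 0, 27.1 and 0 TPM. Both members of that pair were present after 3 injections with PRP, at similar levels. Transcript_495568 and transcript_495569 were both present in each of these 3 ovaries, with the former at 25.2, 16.6 and 6.24 TPM and the latter at 10.6, 12.4 and 33.0 TPM. In none of these 3 pairs was the member at 0 in the 3-injection ovary also at 0 in the 5-injection ovary.

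**Figure D5:**
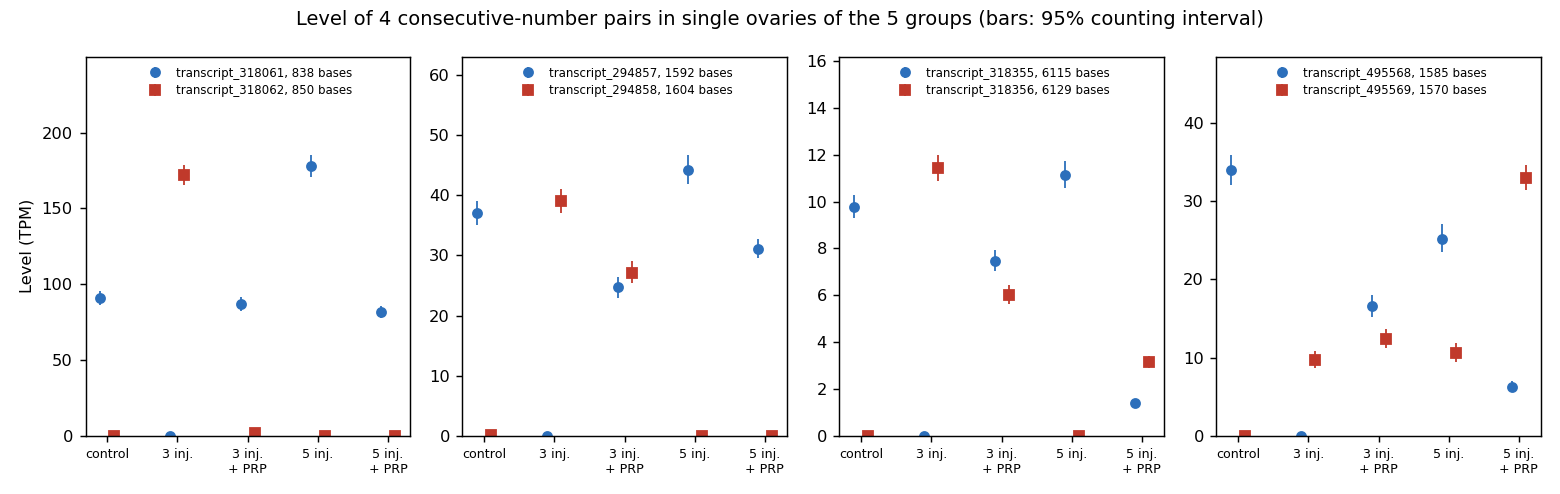
Level in TPM (vertical axis) of both members of 4 consecutive-number pairs in the single ovary of each group (horizontal axis; inj., cisplatin injections), with 95% counting intervals as bars. In the 3-injection ovary the member that is high in control is at 0 in all 4 pairs, while in the 3-injection ovary with PRP 3 of the pairs show both members above 5 TPM.

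Levels were also summed over the whole table. TPM was added up over fixed runs of 10 consecutive numbers, of which 12919 reached 5 TPM. Of these runs 968, 7.49%, were at least 2-fold higher after cisplatin and 1614, 12.5%, were lower. Single transcripts gave 11.2% and 12.7%, but those shares cover only transcripts that reached 5 TPM, while the runs also sum fainter ones. With runs of 50 numbers the shares were 4.39% and 11.6% of 7377. The median difference went from 0.06 in runs of 10 to -0.14 in runs of 50.

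Some transcripts were level between the 2 ovaries. Within 1.1-fold lay 2372 compared transcripts, of which 518 had whole estimates. The highest of these in control was transcript_379445, of 1213 bases, at 436.6 TPM in control (428.8 to 444.6) and 412.5 TPM after cisplatin (404.7 to 420.4). Transcript_383769, of 442 bases, was at 212.7 and 203.5 TPM. Transcript_383128, of 315 bases, was at 103.8 and 102.2 TPM. The first spanned 276.5 to 382.8 TPM in the other 3 ovaries, the second 102.4 to 233.6 and the third 77.6 to 130.3, so they were not level over all 5 ovaries.

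Transcripts at the 2-fold mark show how fine the division is. The mark is set on log2(TPM + 1), so the ratio of plain TPM can pass 2-fold in transcripts just short of it. Just past it upward were transcript_293706, at 2.63 TPM in control and 6.27 TPM after cisplatin, and transcript_59772, at 59.7 and 120.5 TPM. Just short of it were transcript_380342, at 56.4 and 113.7 TPM, and transcript_17846, at 12.9 and 26.8 TPM. On the lower side transcript_62963, at 11.8 and 5.41 TPM, and transcript_156697, at 15.1 and 7.04 TPM, were just inside. Transcript_73454, at 23.3 and 11.2 TPM, and transcript_306106, at 13.7 and 6.34 TPM, were just outside. The counting interval of the plain TPM ratio for transcript_293706, from 1.08 to 6.40, shows that such a low transcript could fall on either side.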

How the data were processed

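Ovarian RNA was sequenced from stranded mRNA libraries, per the labels' protocols. Tools listed in the submitters' processing notes are HISAT2, fastp, FastQC and MultiQC, without versions. For the quantifier, transcript set and build, the sources used here give nothing. Per the file headers, each table holds length, effective length, estimated count and TPM, for listed transcripts; an unlisted one was taken as 0. The authors' deposited TPM column was read only as a score, because 110 control and 71 cisplatin values were over 100 times too large. Estimated counts in 0 and 4 cells were divided by 1000, and TPM was recomputed (Python 3.11.15, pandas 2.3.3, scipy 1.17.1). Differences used a pseudocount of 1 TPM. Whole estimates lay within 1e-06 of a whole number. TPM intervals are exact Poisson 95% intervals, ratio intervals exact conditional binomial ones, both on rounded counts. Folds against 0 use a floor of 3 counts in that library. The fold counts were tested on simulated data. The members, groups and the 9 gene lists, which could not be evaluated, were chosen with earlier results of these data known. Transcripts were named by rule: the widest differences overall (4 each way), with whole estimates (4) and at 4000 bases or more (3), the 5 highest per library, the 3 highest level ones, and those next to the 2-fold mark. The pairs were chosen after their values were seen.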

Additional observations from a re-analysis of the deposited data

How the results depend on the processing

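No paired analysis was possible because each group has 1 library, and for the same reason no replicate could be left out. The median log2 difference, 0.21, became 0.41 with median-of-ratios scaling, 0.12 with quantile normalization, 0.21 with the TPM column as deposited and 0 by construction with centring within length classes. It was 0.039 with a minimum of 1 TPM, 0.28 with 20 TPM, 0.23 with a pseudocount of 0.1 TPM, 0.16 with 5 TPM and 0.29 with whole estimates only. Its sign turned with CPM (-0.025) and without a minimum (-0.084). Alternatives added after seeing the data gave -0.028 with median-of-ratios scaling over compared transcripts, 0.089 with scaling that left out the 100 highest transcripts of both libraries, 0.21 with 5 TPM required in both libraries and 0.21 with 5 TPM in their mean. The cause of these shifts was not tested.

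Counts of transcripts at least 2-fold higher and lower, 2218 and 2530, moved by over 1.5 times under these settings: CPM (1448 higher), a minimum of 1 TPM or none (3859 and 5418 in both), a minimum of 20 TPM (1098 and 1112), a pseudocount of 5 TPM (1647 lower), whole estimates only (156 and 138) and, added later, 5 TPM in both libraries (957 and 1006). The filters change how many transcripts are compared, from 253890 without one to 7884 at 20 TPM. Of 51 named transcripts, none past the 2-fold mark changed sign under the 6 alternatives run for them. This was largely fixed in advance. A changed pseudocount cannot turn a sign, and rescaling cannot turn it for a transcript absent from 1 library. Between 1 and 6 named transcripts crossed the mark in each alternative, mostly those chosen for lying beside it. Opposite close pairs, 28, stayed within 1.5 times that number when the scaling, the pseudocount or the length limit was changed.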
